A study of Mus musculus with 6 samples.

Results

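The 31 genes described here encode the enzymes of cholesterol synthesis and the proteins that sense, regulate, store and turn over sterols. They were taken by gene symbol from the feature lists of 6 single-nucleus RNA libraries, in which all 31 are among 32285 listed genes. No expression cut-off was applied to them, but the list was chosen with earlier results of these data known. Each library holds frontal lobe nuclei of 1 mouse. The 3 SwDI/TKO mice carry a Trem2 knockout on the Tg-SwDI background, and the 3 SwDI/TWT mice carry wild-type Trem2 on the same background, so that the transgene is shared by both groups. Age, sex, the promoter of the transgene and the design of the Trem2 allele are not given in the labels. As background, Tg-SwDI mice carry a mutant human amyloid precursor protein transgene, and Trem2 encodes a lipid-binding receptor of microglia. The libraries are called TKO and TWT replicates 1 to 3 below; the replicate numbers follow accession order and pair nothing.

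Cholesterol is made from acetyl-CoA through the mevalonate pathway. Acat2, Hmgcs1, Mvk, Pmvk, Mvd and Idi1 carry carbon from acetyl-CoA to activated isoprene units, Fdps and Ggps1 join these units, and Fdft1, Sqle and Lss build and close squalene into lanosterol. Cyp51, Tm7sf2, Msmo1, Nsdhl, Hsd17b7, Ebp, Sc5d and Dhcr7 convert lanosterol to cholesterol. When membrane sterol is low, the escort protein encoded by Scap carries the transcription factors encoded by Srebf2 and Srebf1 to the Golgi, where proteases, of which Mbtps1 makes the initial cut, release them to switch on synthesis genes. Insig1 and Insig2 encode proteins that hold Scap back when sterol is plentiful, and Insig1 is itself a target of the pathway. Soat1 esterifies cholesterol for storage, Stard4 carries it between membranes, Cyp46a1 hydroxylates it for export from neurons, Nr1h2 and Nr1h3 encode the liver X receptors, which respond to oxidised sterols, and Acly supplies cytosolic acetyl-CoA. In the adult brain, lipoprotein cholesterol does not cross the blood-brain barrier, so cholesterol is made locally. Astrocytes are known as a source for neurons, and oligodendrocytes place large amounts in myelin.

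The promoters of 4 genes are shown because these genes have the lower astrocyte levels described below, and because sterol response elements and CCAAT boxes are the known sites through which SREBP and its partner NF-Y act on this pathway. The sequences come from RefSeq on GRCm38.p6 and run 5′ to 3′ on the strand of the gene, from 200 to 51 bases before the annotated start, or 110 to 81 bases for Msmo1. Capitals mark letters matching TCACNNNAC or CCAAT on either strand.
Hmgcs1 chr13:119690151-119690300, plus strand: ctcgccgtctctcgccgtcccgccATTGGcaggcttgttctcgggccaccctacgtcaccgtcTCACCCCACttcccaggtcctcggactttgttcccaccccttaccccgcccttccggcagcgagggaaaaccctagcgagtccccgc
Insig1 chr5:28071212-28071361, plus strand: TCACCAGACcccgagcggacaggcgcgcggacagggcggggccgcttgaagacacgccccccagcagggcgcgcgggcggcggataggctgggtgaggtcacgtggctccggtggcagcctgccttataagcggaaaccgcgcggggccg
Cyp51 chr5:4104748-4104897, minus strand: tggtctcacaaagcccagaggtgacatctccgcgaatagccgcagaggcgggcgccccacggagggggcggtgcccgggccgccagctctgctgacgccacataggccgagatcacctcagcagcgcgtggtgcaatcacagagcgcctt
Msmo1 chr8:64733659-64733688, minus strand: ggccttagcacggaCCAATCACTGCACggc
In Msmo1 the CCAAT box and the TCACNNNAC match overlap, and the Cyp51 window holds neither motif. Promoter entries, each 250 bases before to 50 after a start, were found for 27 of the 31 genes, giving 36 promoters of 32851 in the table. The stricter TCACNCCAC, which is contained in TCACNNNAC, was present in 1 of the 36 promoters, that of Hmgcs1, and in 1.24% of all promoters. TCACNNNAC was present in 7 of 36, against 11.2% of all promoters, and these belong to Dhcr7, Hmgcs1, Hsd17b7, Insig1, Msmo1 and Nsdhl. CCAAT was present in 23 of 36, against 37.4% of all promoters. All motifs were searched on both strands, and a match describes letters only.

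The files hold 39752 nucleus barcodes, and 33008 nuclei were kept after filters on genes, mitochondrial share and doublets. TKO replicate 1 had 51317961 UMIs and was processed with Cell Ranger 7.0.0, whereas the other 5 libraries had 11493087 to 17835287 UMIs and were processed with version 6.1.2. This version difference lies within the TKO group, so the main counts of genotype results are given with and without TKO replicate 1. In microglia-like nuclei Trem2 had 348, 782 and 508 normalised CPM in TKO replicates 1 to 3, against 2005, 1741 and 1010 CPM in TWT replicates 1 to 3. Every TKO value was below every TWT value, but the fold change of −1.54 ± 0.37 (log2, SE) had an adjusted p of 0.757 in edgeR's quasi-likelihood test over all genes. Without TKO replicate 1 it was −1.27, with an adjusted p of 0.0927 in edgeR. Because the allele is not described, these 3′ reads may lie outside the altered sequence. Pairs of libraries shared 8 to 18 cell barcodes. P-values measure the spread between these samples, which are 1 library per mouse. Cell classes were rebuilt from clusters made without the pathway genes and named by marker genes. Each name means "-like", and a difference from the study's own classes may come from the naming.

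Astrocyte-like nuclei had the highest mean level of most of the genes. Among the 29 genes that could be set on 1 scale over 7 classes and 6 libraries, the astrocyte-like class had the highest mean for 16, including 12 of the 19 synthesis enzymes. Excitatory neurons had the highest mean for 4 (Acat2, Fdft1, Lss and Sc5d), microglia for 4 (Acly, Ggps1, Insig2 and Nr1h2), oligodendrocytes for Ebp and Scap, striatal projection neurons for Cyp46a1 and Mbtps1, and oligodendrocyte precursors for Pmvk. The libraries count 3′ ends, so each gene is compared with itself across classes and not with other genes. Stard4 and Nr1h3 did not pass the count filter of the joint fit.

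Msmo1, a sterol methyl oxidase, averaged 259.6 ± 142 CPM in astrocytes (SD over 6 libraries, range 69.5 to 502). Its mean was 85.8 ± 16.7 CPM in excitatory neurons, 80.0 ± 19.8 in oligodendrocytes, 58.9 ± 15.3 in striatal projection neurons, 46.2 ± 10.9 in inhibitory neurons, 42.9 ± 17.5 in precursors and 35.9 ± 11 in microglia. The lowest astrocyte library, TKO replicate 2, lay within the range of the oligodendrocyte libraries, and from excitatory neurons down each class overlapped in range with the next. Hmgcs1, which makes HMG-CoA, averaged 115 ± 86.4 CPM in astrocytes and 79.6 ± 15.4 CPM in excitatory neurons, and these 2 classes overlapped widely. Insig1 averaged 101 ± 67.2 CPM in astrocytes, against 62.8 ± 14.9 in oligodendrocytes and 31.9 CPM in excitatory neurons. For these 3 genes the spread between astrocyte libraries was larger than in any other class quoted.

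Among the regulators and the storage and turnover genes, Srebf1 and Soat1 were highest in astrocytes and Cyp46a1 in neurons. Srebf1 averaged 141 ± 29.4 CPM in astrocytes (range 91.3 to 165), 69.8 ± 18.5 in oligodendrocytes (33.6 to 87.4) and 42.4 ± 18.3 in precursors. In microglia it averaged 14.0 ± 4.11 CPM, in inhibitory neurons 8.63 ± 4.69, in excitatory neurons 5.24 ± 2.03 and in striatal projection neurons 5.05 ± 1.25. Astrocytes, oligodendrocytes and precursors did not overlap the neurons, whose 3 levels overlapped in range. Soat1, which esterifies cholesterol, averaged 183 ± 44.7 CPM in astrocytes (131 to 249), 73.5 ± 11.7 in microglia, 43.7 ± 14.7 in precursors and 18.6 ± 6.42 in oligodendrocytes (6.82 to 24.5). Cyp46a1, the neuronal cholesterol hydroxylase, had 158 ± 43.0 CPM in striatal projection neurons (79.9 to 194), 105 ± 29.3 in excitatory and 100.4 ± 23.6 in inhibitory neurons, 55.6 ± 13.8 in astrocytes and 26.4 ± 8.94 in oligodendrocytes. Ebp, the sterol isomerase, was highest in oligodendrocytes at 31.7 ± 14.6 CPM (9.48 to 47.2), close to microglia at 29.6 ± 9.46, with 8.29 ± 6.05 in astrocytes (0 to 15.4) and 5.37 ± 4.70 in precursors. Srebf2, by contrast, was spread over the classes, with 167 ± 33.5 CPM in astrocytes, 151 in excitatory neurons, 126 in oligodendrocytes and 35.6 in microglia.

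**Figure D1:**
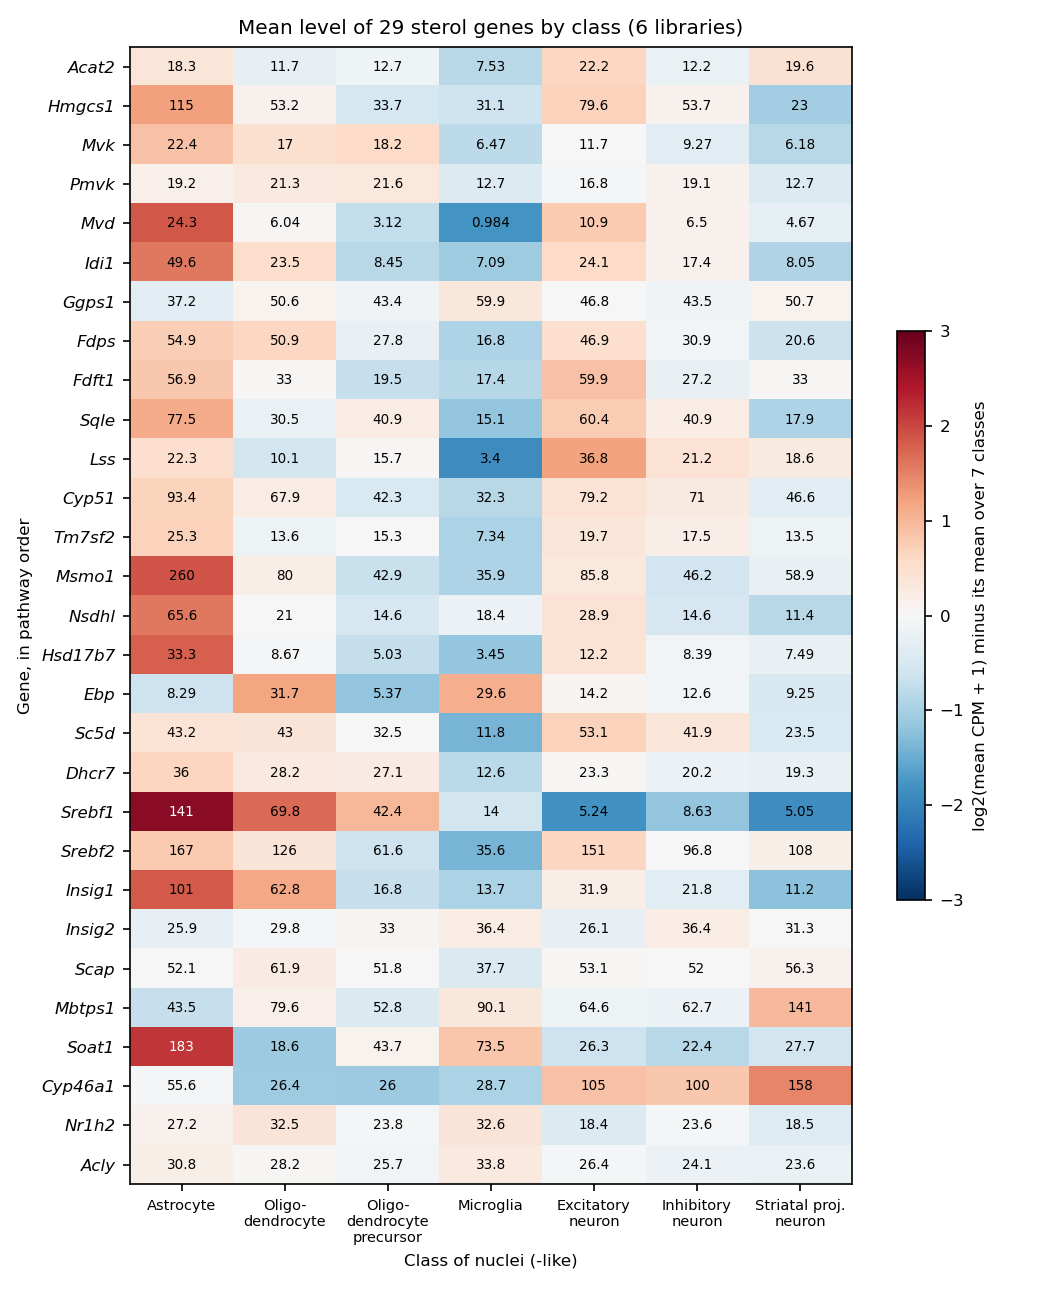
Heatmap of 29 genes (rows) in 7 marker-named classes (columns). The number in each cell is the mean CPM over 6 libraries, and the colour is the log2 of that mean plus 1, relative to the mean over the 7 classes for the same gene. Msmo1 and Soat1 are highest in the astrocyte-like column, Cyp46a1 in the striatal column, and Ebp in the oligodendrocyte column.

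Astrocytes and oligodendrocytes were compared in a single edgeR fit over all classes with the mouse as a block. Of the 29 genes tested, 18 passed an adjusted p of 0.05, 16 higher and 2 lower in astrocytes, where 41.8% of all genes passed, 20.9% higher and 21% lower. Soat1 was higher in astrocytes by 3.22 ± 0.18 (log2, SE; adjusted p = 3.36e-21, edgeR). Mvd, the mevalonate diphosphate decarboxylase, was higher by 2.31 ± 0.40 (edgeR adjusted p = 3.55e-06), and Hsd17b7, a sterol ketoreductase, by 2.02 ± 0.36 (edgeR adjusted p = 5.49e-06). Both are low-count genes that were not tested without TKO replicate 1. Ebp was lower in astrocytes, at −1.92 ± 0.34 (edgeR adjusted p = 4.50e-06), and so was Mbtps1, at −0.80. Msmo1 was higher by 1.68 ± 0.20 (edgeR adjusted p = 1.99e-10). Over the 29 genes the median difference was 0.70 on the log2 scale, against −0.07 over all genes, and without TKO replicate 1 the test called 15 of 27, against 35.2% of genes.

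Against excitatory neurons, astrocytes differed in 16 of 29 genes, 12 higher and 4 lower, where 56.8% of all genes passed, 25.5% higher and 31.4% lower. The overall count is thus close to that of all genes, while the higher calls outnumber the lower ones. Srebf1 was higher by 4.68 ± 0.19 on the log2 scale, a 25.6-fold difference (edgeR adjusted p = 4.90e-27). Soat1 was higher by 2.80 ± 0.15, Insig1 by 1.80 ± 0.20 and Msmo1 by 1.61 ± 0.18, with adjusted p-values of 8.06e-23, 2.16e-11 and 2.85e-11 in edgeR. The 4 lower genes were Cyp46a1 at −0.85 ± 0.18, Ebp at −0.81, Lss at −0.54 and Mbtps1 at −0.49. Ebp and Lss were not called without TKO replicate 1 (adjusted p = 0.131 and 0.0716, edgeR). Against inhibitory neurons 19 of 29 genes differed, 18 of them higher in astrocytes and only Cyp46a1 lower, at −0.81, where 50.5% of genes passed, 23.6% higher and 26.9% lower. Srebf1 was higher there by 4.14 ± 0.22, Soat1 by 3.01 ± 0.16, Msmo1 by 2.51 ± 0.20 and Insig1 by 2.36 ± 0.22. With TKO replicate 1 left out, the 2 counts were 12 and 14 of 27, against 51% and 44% of genes.

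Oligodendrocytes differed from excitatory neurons in 15 of 29 genes, 5 higher and 10 lower, where 68.2% of genes passed, 32.1% higher and 36.1% lower. Srebf1 was higher in oligodendrocytes by 3.63 ± 0.18 (12.4-fold, adjusted p = 1.05e-23 in edgeR) and Ebp by 1.11 ± 0.18, while Cyp46a1 at −1.86 ± 0.16 and Lss, which closes squalene into lanosterol, at −1.68 ± 0.21 were lower. Lss averaged 10.1 ± 5.44 CPM in oligodendrocytes and 36.8 ± 12.5 CPM in excitatory neurons. Without TKO replicate 1 Srebf1, Ebp, Cyp46a1 and Lss were still called in edgeR, Nsdhl was no longer called and Sc5d was. Precursors, the cells from which oligodendrocytes form, differed from oligodendrocytes in 10 of 29 genes, of which 9 were lower and only Soat1 was higher, by 1.20 ± 0.25, where 40.6% of genes passed, 21.2% higher and 19.5% lower. Without TKO replicate 1 Fdps, Msmo1 and Fdft1 were no longer called (adjusted p = 0.0589, 0.0595 and 0.400, edgeR). Mbtps1 was then called lower in precursors (adjusted p = 0.0312, edgeR). Ebp at −2.20 ± 0.37, Insig1 at −2.06 ± 0.33 and Idi1, the isopentenyl diphosphate isomerase, at −1.50 ± 0.42 were the lower genes with the largest differences (adjusted p = 2.24e-06, 9.12e-07 and 0.00268 in edgeR). Excitatory and inhibitory neurons differed in 14 of 29 genes, 13 higher and 1 lower in excitatory neurons, where 40.7% of genes passed, 22.7% higher and 18% lower. Fdft1, squalene synthase, was higher by 1.17 ± 0.19, with 59.9 ± 10.2 CPM in excitatory and 27.2 ± 5.50 CPM in inhibitory neurons, and Nsdhl, a sterol dehydrogenase, averaged 28.9 ± 4.55 CPM in excitatory and 14.6 ± 4.36 CPM in inhibitory neurons (adjusted p = 3.38e-05, edgeR). Msmo1 was higher by 0.90 ± 0.18 and Acat2, a thiolase of the initial step, by 0.83 ± 0.21. Insig2, at −0.48 ± 0.11, was the lower gene. Without TKO replicate 1 Fdft1, Nsdhl, Msmo1, Acat2 and Insig2 were still called in edgeR, and Idi1 was no longer called.

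The Trem2 comparison asks whether the loss of this microglial receptor goes with different sterol gene levels in each cell class. In astrocyte-like nuclei several synthesis genes were lower on average in TKO than in TWT mice, but no gene of the 31 passed an adjusted p of 0.05, and the lowest adjusted p among them was 0.590 in edgeR. No gene of the 4301 tested passed in this class (0%), and 8.11% had an unadjusted p under 0.05. Of the 16 genes that passed the count filter, 12 were lower in TKO with a median of −0.35 on the log2 scale and 1 had an unadjusted p under 0.05, while 46.9% of all tested genes were lower. With no count filter all 31 genes could be fitted, of which 26 were lower, with a median of −0.42, against 43.2% of all genes. Over the 5 libraries other than TKO replicate 1, 17 genes were tested and 14 were lower, with a median of −0.37 and 6 at an unadjusted p under 0.05, against 50.7% of genes lower and 4.41% at that p. Of these 6, Tm7sf2 and Idi1 had failed the count filter over 6 libraries and entered here through the TWT libraries, where they are higher, so that this count is a description and no support. DESeq2 called none of the 31 in this or any other class, and 1 gene in all here, or 0.0233%. In the other classes and over all nuclei no gene of the 31 had an unadjusted p under 0.05 in edgeR over 6 libraries. All genes had such a p in 6.22% of tests in oligodendrocytes, 6.34% in precursors, 6.38% in microglia, 5.17% in excitatory, 6.58% in inhibitory and 3.96% in striatal projection neurons, and 3.77% over all nuclei.

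Astrocyte nuclei numbered 361, 87 and 129 in TKO replicates 1 to 3 and 235, 217 and 172 in TWT replicates 1 to 3, with 1016140, 121460 and 174159 UMIs in TKO and 301396, 273054 and 246698 UMIs in TWT. A single UMI in TKO replicate 2 is thus worth 8.94 CPM, and 17 of its 87 nuclei came from a small cluster led by Sash1 and Fabp7 that otherwise held 30 nuclei of TWT replicate 1. Summed over 11 astrocyte markers, all detected in every library, the level was 10481 to 14900 CPM in TKO and 12420 to 14455 CPM in TWT. Oligodendrocyte markers, of which 9 to 12 of 12 were detected, summed to 310 to 1194 CPM in TKO astrocytes and 349 to 790 CPM in TWT astrocytes. Excitatory neuron markers, 7 to 10 of 10 detected, summed to 1037 to 1713 CPM in TKO and 1321 to 1804 CPM in TWT. In excitatory neurons the same list summed to 1365 to 1854 CPM in TKO and 1573 to 1866 CPM in TWT. In oligodendrocytes it summed to 152 to 203 CPM in TKO and 154 to 274 CPM in TWT. The sum of this list thus separates astrocytes poorly from excitatory neurons and is no measure of neuronal RNA in them. The part of either list in the values below was not tested.

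Among the early enzymes, Hmgcs1 (chr13:119690379-119708260, plus strand, mm10) had 100.02, 17.9 and 95.6 CPM in TKO replicates 1 to 3, against 120.4, 301 and 114 CPM in TWT replicates 1 to 3. Every TKO value was below every TWT value, but TKO replicate 2 rested on 2 UMIs, and TWT replicate 2 stood well above the other TWT libraries. The means were 71.2 ± 46.2 CPM in TKO and 178 ± 106 CPM in TWT, a fold change of −1.22 ± 0.57 (log2, SE; unadjusted p = 0.0570, adjusted p = 0.590, edgeR). Without TKO replicate 1 it was −1.52 ± 0.52 with an unadjusted p of 0.00843, and without TWT replicate 2 it was −0.65 with an unadjusted p of 0.293. Mvk, mevalonate kinase, had 17.8, 0 and 11.9 CPM in TKO, against 42.7, 41.8 and 31 CPM in TWT, from 13, 0 and 2 UMIs in TKO and 11, 10 and 6 UMIs in TWT. Idi1 had 43.8, 17.9 and 35.8 CPM in TKO and 54.4, 125 and 46.5 CPM in TWT. Neither Mvk nor Idi1 had enough counts to enter the test over 6 libraries, although in both the groups did not overlap.

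At the branch point, Fdps, which makes farnesyl diphosphate, had 27.4, 26.8 and 65.7 CPM in TKO, against 81.5, 117 and 41.3 CPM in TWT. The groups overlapped, since TKO replicate 3 lay above TWT replicate 3, and the fold change was −1.09 ± 0.51 (unadjusted p = 0.0566 in edgeR). Fdft1, which commits carbon to sterols, had the highest fold change of the tested enzymes, with 148, 26.8 and 59.7 CPM in TKO and 50.5, 71.1 and 15.5 CPM in TWT. Its fold change was 0.93 ± 0.61 with TKO replicate 1, the highest library, and −0.05 ± 0.61 without it. Ggps1, geranylgeranyl diphosphate synthase, had 67.1, 17.9 and 29.9 CPM in TKO and 46.6, 50.2 and 31 CPM in TWT, at 0.11 ± 0.48. Sqle, squalene epoxidase, had 37.0, 62.6 and 108 CPM in TKO and 97.1, 155 and 51.6 CPM in TWT, at −0.65 ± 0.52. In both genes the libraries of the groups were interleaved.

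Among the enzymes that act after lanosterol, Cyp51 (chr5:4081145-4104746, minus strand), the lanosterol demethylase, had 97.3, 62.6 and 53.8 CPM in TKO and 113, 138 and 145 CPM in TWT. The 3 TKO libraries were all below the 3 TWT libraries, with means of 71.2 ± 23.0 CPM in TKO and 132 ± 16.9 CPM in TWT. The fold change was −0.81 ± 0.37 (unadjusted p = 0.0519, edgeR) and −1.19 ± 0.40 without TKO replicate 1 (unadjusted p = 0.00724, adjusted p = 0.999, edgeR). Msmo1 (chr8:64718139-64733792, minus strand) had 207, 80.5 and 263 CPM in TKO, against 287, 548 and 310 CPM in TWT. These groups did not overlap either, with TKO replicate 2 lowest on 9 UMIs and TWT replicate 2 highest on 131. The fold change was −1.03 ± 0.47 (unadjusted p = 0.0505, edgeR), −1.09 ± 0.40 without TKO replicate 1, −0.73 without TKO replicate 2 and −0.71 without TWT replicate 2. Tm7sf2, a sterol reductase, had 21.9, 8.94 and 0 CPM in TKO and 54.4, 58.5 and 20.7 CPM in TWT, with too few counts for the test over 6 libraries. Nsdhl had 91.8, 35.8 and 53.8 CPM in TKO and 93.2, 113 and 41.3 CPM in TWT. Sc5d, the sterol desaturase, had 41.1, 26.8 and 53.8 CPM in TKO and 54.4, 50.2 and 56.8 CPM in TWT. Dhcr7, a terminal reductase, had 27.4, 17.9 and 41.8 CPM in TKO and 46.6, 71.1 and 31 CPM in TWT. All 3 overlapped between the groups, at −0.33 ± 0.47, −0.36 ± 0.38 and −0.77 ± 0.48, less than 2 standard errors.

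Over all 31 genes, the TKO and TWT astrocyte libraries did not overlap for Hmgcs1, Mvk, Idi1, Cyp51 and Msmo1, all 5 lower in TKO, overlapped for 26, and did not separate upwards for any. Only Hmgcs1, Cyp51 and Msmo1 of these were among the genes tested, of which 5.67% were lower and 5.42% higher without overlap. By group means 24 of the 31 genes were lower and 7 higher in TKO. Of the 31 genes, 25 had at least 1 UMI in every library and 6 were at 0 in some library.

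Among the regulators, Insig1 (chr5:28071363-28078662, plus strand) had 85.0, 53.6 and 59.7 CPM in TKO, against 175, 226 and 62.0 CPM in TWT. TWT replicate 3 lay among the TKO libraries, so the groups overlapped. Insig1 was the gene with the lowest unadjusted p of the 31 in this class, with a fold change of −1.16 ± 0.48 (unadjusted p = 0.0361, adjusted p = 0.590, edgeR), and it was −1.46 ± 0.49 without TKO replicate 1. It was −0.84 (unadjusted p = 0.149, edgeR) without TWT replicate 2, and its unadjusted p in edgeR was 0.0727 to 0.0810 without TKO replicate 2, TKO replicate 3 or TWT replicate 1. Srebf2 had 173, 125 and 185 CPM in TKO, against 182, 226 and 201 CPM in TWT, at −0.32 ± 0.35. Srebf1 had 97.3, 188 and 185 CPM in TKO and 136, 146 and 176 CPM in TWT, at 0.00 ± 0.40, with a sign that changed with the processing. Scap had 49.3, 35.8 and 77.7 CPM in TKO and 62.1, 92.0 and 25.8 CPM in TWT, interleaved, at −0.17 ± 0.48. For storage and turnover, Soat1 had 188, 152 and 281 CPM in TKO and 175, 167 and 237 CPM in TWT, and Cyp46a1 39.7, 53.6 and 83.6 CPM in TKO and 54.4, 62.7 and 72.3 CPM in TWT. Both pairs overlapped fully, at 0.10 ± 0.38 and −0.17 ± 0.41. Acat2, Pmvk, Mvd, Lss, Hsd17b7, Ebp, Insig2, Mbtps1, Stard4, Nr1h2, Nr1h3 and Acly also had too few astrocyte counts for the test.

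**Figure D2:**
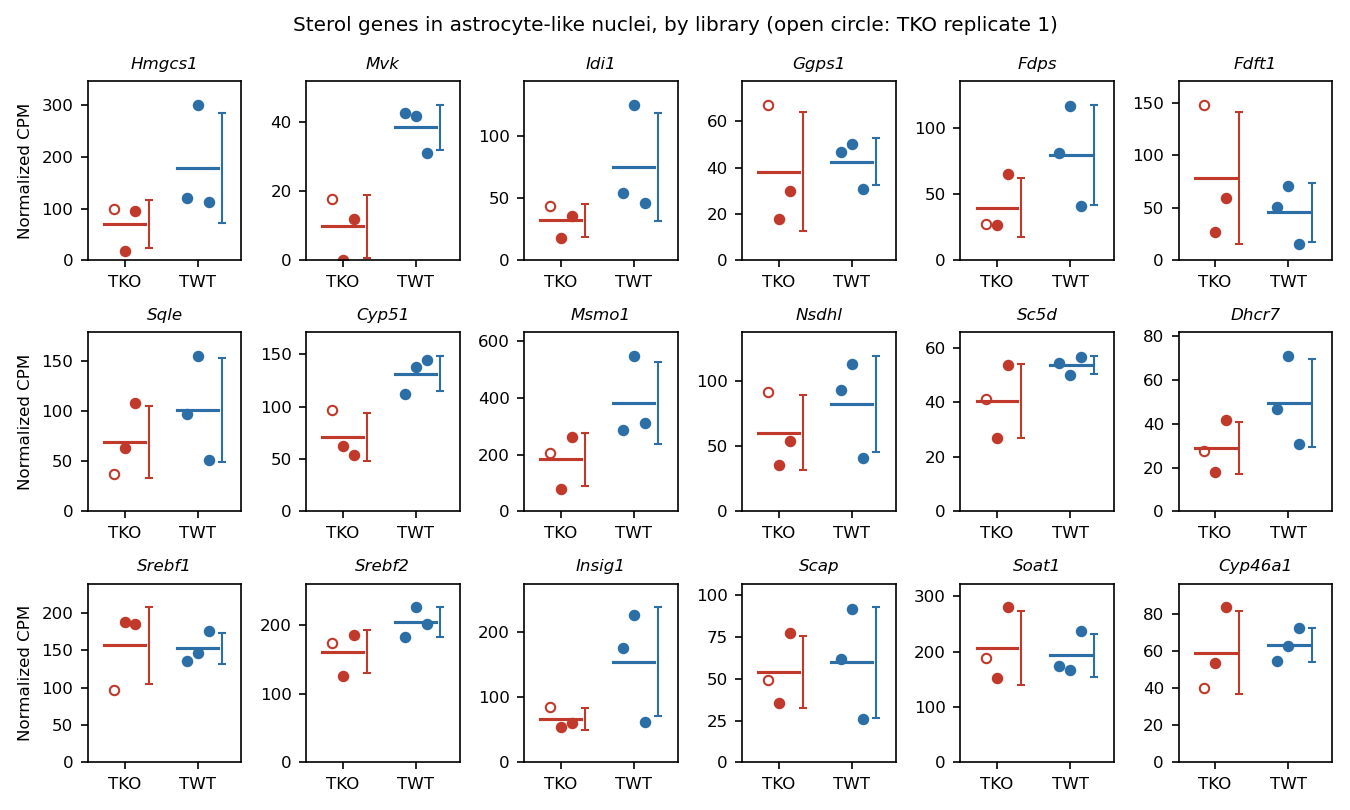
Normalised CPM of 18 genes in astrocyte-like nuclei, with 1 panel per gene, TKO left of TWT and 1 point per library. The line is the mean of 3 libraries, the bar is the SD, and the open circle is TKO replicate 1. The points of Hmgcs1, Mvk, Idi1, Cyp51 and Msmo1 do not overlap between the groups, and those of Soat1 and Cyp46a1 do.

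The 19 synthesis enzymes together took 0.0769, 0.0445 and 0.0976% of astrocyte UMIs in TKO replicates 1 to 3, against 0.109, 0.177 and 0.0847% in TWT replicates 1 to 3. The groups overlapped, since TWT replicate 3 lay below TKO replicate 3, and TWT replicate 2 was the highest. The means were 0.0730 ± 0.0268% in TKO and 0.123 ± 0.0478% in TWT, a difference of −0.0505 percentage points that shrank to −0.0238 without TWT replicate 2. These shares rest on 781, 54 and 170 enzyme UMIs in TKO and 328, 483 and 209 in TWT. In oligodendrocytes the share was 0.0518 ± 0.00672% in TKO and 0.0579 ± 0.0102% in TWT. The precursor share was 0.0406 ± 0.0122% in TKO and 0.0547 ± 0.00600% in TWT. These precursor groups overlapped, and their difference was −0.0190 to −0.0072 percentage points with a library left out. In excitatory neurons the share was 0.0715 ± 0.0245% in TKO and 0.0656 ± 0.00693% in TWT, with TKO replicate 1 lowest of all 6 at 0.0440%. TKO replicates 2 and 3, at 0.0793 and 0.0911%, lay above TWT replicates 1 to 3 at 0.0621, 0.0735 and 0.0610%. The TKO mean was 0.0852% without TKO replicate 1. With a library left out, the difference in excitatory neurons was −0.0039 to 0.0197 percentage points, so its sign rested on single libraries. TKO replicate 1 was also the lowest library for oligodendrocytes (0.0450%), precursors, inhibitory neurons, striatal projection neurons and all nuclei (0.0439%).

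**Figure D3:**
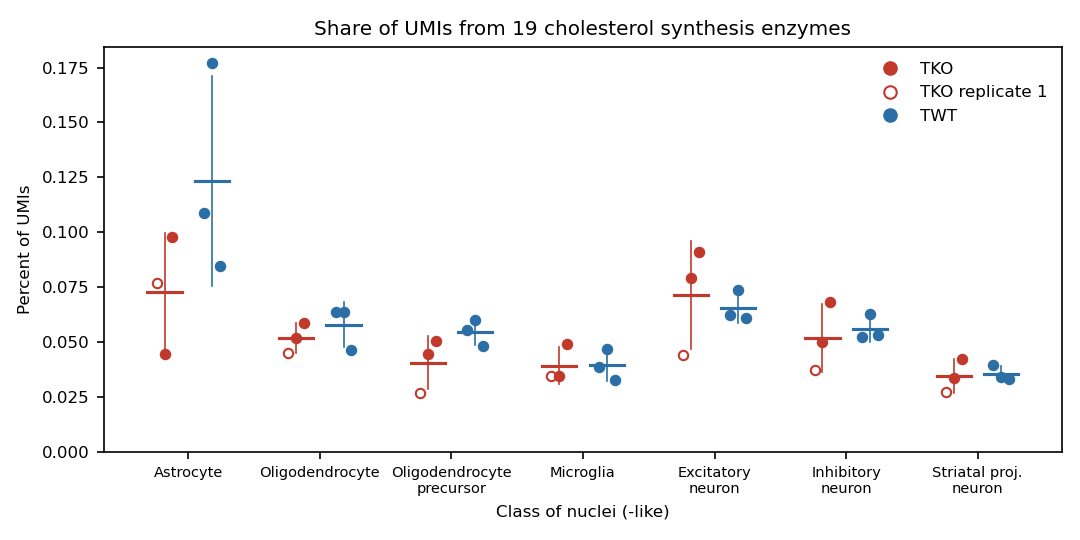
Percent of UMIs from the 19 synthesis enzymes in each cell class, with TKO left of TWT, 1 point per library, the line at the mean of 3 libraries and the bar showing the SD. The astrocyte-like panel has the widest spread, 0.0445 to 0.0976% in TKO and 0.0847 to 0.177% in TWT, and the groups overlap in it.

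In oligodendrocytes, the myelin-forming cells, no gene of the 31 passed, the lowest adjusted p was 0.767 in edgeR, and 0% of 7560 genes passed. Of 23 genes tested, 15 were lower in TKO with a median of −0.27, while 48.3% of all tested genes were lower. With TKO replicate 1 left out, 16 of 25 were lower, with a median of −0.14, against 50% of all genes. Ebp had 19.5, 8.82 and 33.3 CPM in TKO and 45.6, 45.3 and 30.3 CPM in TWT, so that TKO replicate 3 lay above TWT replicate 3. Its fold change was −0.99 ± 0.45 with an unadjusted p of 0.0513 in edgeR. Srebf2 (chr15:82147181-82205379, plus strand) had 101, 85.3 and 103 CPM in TKO and 155, 149.8 and 128 CPM in TWT, with no overlap. It differed by −0.58 ± 0.26 over 6 libraries and by −0.63 ± 0.25 without TKO replicate 1. Sqle, at 21.7, 22.1 and 23.3 CPM in TKO and 31, 50.5 and 26.7 CPM in TWT, was also lower without overlap, and Ggps1, at 66.2, 66.2 and 41.7 CPM in TKO and 38.3, 36.6 and 39.2 CPM in TWT, was the gene higher without overlap. These are 2 lower and 1 higher of the 23, against 4.44% and 5.32% of all genes tested. Mvd, not tested, had 3.26, 1.47 and 3.33 CPM in TKO and 9.12, 10.4 and 7.12 CPM in TWT, from at most 6 UMIs per library. Msmo1 at −0.41 ± 0.31, Insig1 at −0.47 ± 0.31 and Hmgcs1 at −0.33 ± 0.33 differed by less than 2 standard errors. In TKO replicate 1, cluster 11 held 1076 of the 1258 oligodendrocyte nuclei, whereas cluster 2 held most of them in the other libraries.

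In excitatory neurons 30 genes were tested, 12 lower and 18 higher in TKO, with a median of 0.06, where 45.1% of all tested genes were lower. There was no call (0% of 12947 genes), and the lowest adjusted p was 0.662 in edgeR. Over the 5 libraries other than TKO replicate 1, 9 of 30 were lower, with a median of 0.22, against 47.7% of all genes lower. Mvk had 7.95, 14.1 and 17.4 CPM in TKO, against 7.77, 9.84 and 7.91 CPM in TWT. TKO replicate 1 lay among the TWT values and the other 2 above them, and the fold change was 0.60 ± 0.38, or 0.87 ± 0.28 without TKO replicate 1 (unadjusted p = 0.0134, adjusted p = 0.999, edgeR). Acat2 had 27.3, 29.1 and 16.1 CPM in TKO and 16.7, 15.6 and 18 CPM in TWT, with TKO replicate 3 among the TWT values, at 0.54 ± 0.30. Fdft1 had 76.2, 56.3 and 57.9 CPM in TKO and 47.8, 47.6 and 47.2 CPM in TWT. Fdft1 and Nsdhl were higher in TKO without overlap and Cyp51, with 67.8, 64.4 and 69.2 CPM in TKO and 70.5, 84.5 and 81.7 CPM in TWT, was lower, against 5.31% of genes higher and 5.67% lower. Fdft1 differed by 0.42 ± 0.24 and Cyp51 by −0.23 ± 0.22, within 2 standard errors. Cluster 9 held 1235 of the 1853 excitatory nuclei of TKO replicate 1, and cluster 1 most of those of the other libraries.

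Inhibitory neurons had 26 genes tested, 18 of them lower in TKO, with a median of −0.15, where 45.9% of all tested genes were lower. There was no call (0% of 10035 genes), and the lowest adjusted p was 0.642 in edgeR. Without TKO replicate 1, 14 of 27 were lower, against 48.6% of all genes. Sqle, with 31.7, 34.8 and 42.0 CPM in TKO and 45.5, 60.5 and 46.6 CPM in TWT, Nsdhl, Srebf2 and Soat1 were lower without overlap, 4 of 26, against 5.63% of genes. Srebf2 had 87.7, 86.3 and 94.2 CPM in TKO and 107, 123 and 121 CPM in TWT, at −0.38 ± 0.24. Ggps1 was 90.2 CPM in TKO replicate 1 and 35.9 and 47.7 CPM in the other TKO libraries, against 36.9, 28.5 and 39.3 CPM in TWT. Its fold change was 0.76 ± 0.38 with TKO replicate 1 and 0.26 without it. Acat2 was likewise highest in TKO replicate 1, with 19.73, 15.7 and 11.4 CPM in TKO and 11.4, 9.50 and 10.05 CPM in TWT, at 0.65 ± 0.36.

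Striatal projection neurons had 30 genes tested, 20 lower in TKO, with a median of −0.13, where 45.1% of all tested genes were lower. No gene was called (0% of 12536), and the lowest adjusted p was 0.772 in edgeR. With TKO replicate 1 left out, 17 of 30 were lower, against 46.7% of all genes. Srebf2 had 74.2, 85.8 and 82.0 CPM in TKO and 107, 113 and 94.8 CPM in TWT, without overlap, at −0.38 ± 0.23. Cyp51 was the other gene lower without overlap, so 2 of 30 against 5.24% of genes. Tm7sf2 had 5.81, 12.3 and 8.93 CPM in TKO and 10.3, 15.1 and 17.0 CPM in TWT, overlapping, at −0.67 ± 0.38. Ggps1 had 83.7, 36.6 and 32.7 CPM in TKO and 34.3, 36.5 and 39.8 CPM in TWT, and its fold change of 0.46 ± 0.39 was −0.10 without TKO replicate 1. Cluster 18 held 387 of the 604 striatal nuclei of TKO replicate 1, and cluster 0 most of those of the other libraries.

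In precursors and in microglia, the class that expresses Trem2, only 3 genes each had enough counts. In precursors these were Srebf2 at −0.15, Scap at −0.48 and Mbtps1 at 0.15. Among the genes not tested in precursors, 6 were lower in TKO without overlap (Pmvk, Idi1, Cyp51, Tm7sf2, Nsdhl and Stard4) and Lss was higher. The 31 genes together had only 137 to 425 UMIs per precursor library, so these are descriptions of low counts. With no count filter 18 of the 31 were lower in precursors, with a median of −0.37. The shares of all genes that go with these precursor counts are not given here, so the counts are no result about the 31 genes. In microglia Ggps1 differed by 0.56 ± 0.41, Mbtps1 by −0.28 and Soat1 by 0.03. The lowest adjusted p was 0.835 in precursors and 0.814 in microglia in edgeR, with 0% of genes called in both. Summed over all nuclei, 16 of 31 genes were lower, where 45.6% of all genes were, and 0% of genes were called. Over the 5 libraries other than TKO replicate 1, 13 of 31 were lower, against 47.6% of all genes. Srebf2 had 116, 109 and 110.25 CPM in TKO and 135, 135 and 128 CPM in TWT, the 1 gene lower without overlap against 5.35% of genes, at −0.25 ± 0.21 (unadjusted p = 0.275, edgeR). Acat2, with 24.7, 19.6 and 18 CPM in TKO and 13.1, 16.4 and 15.1 CPM in TWT, and Acly, with 34.4, 26.4 and 29.99 CPM in TKO and 21.2, 23.2 and 21.9 CPM in TWT, were the 2 higher without overlap, against 5.46% of genes. Their fold changes were 0.48 ± 0.24 and 0.45 ± 0.21, with unadjusted p-values of 0.0860 and 0.0710 in edgeR. Fewer cells of a class and less RNA per cell cannot be told apart in these sums over all nuclei.

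**Figure D4:**
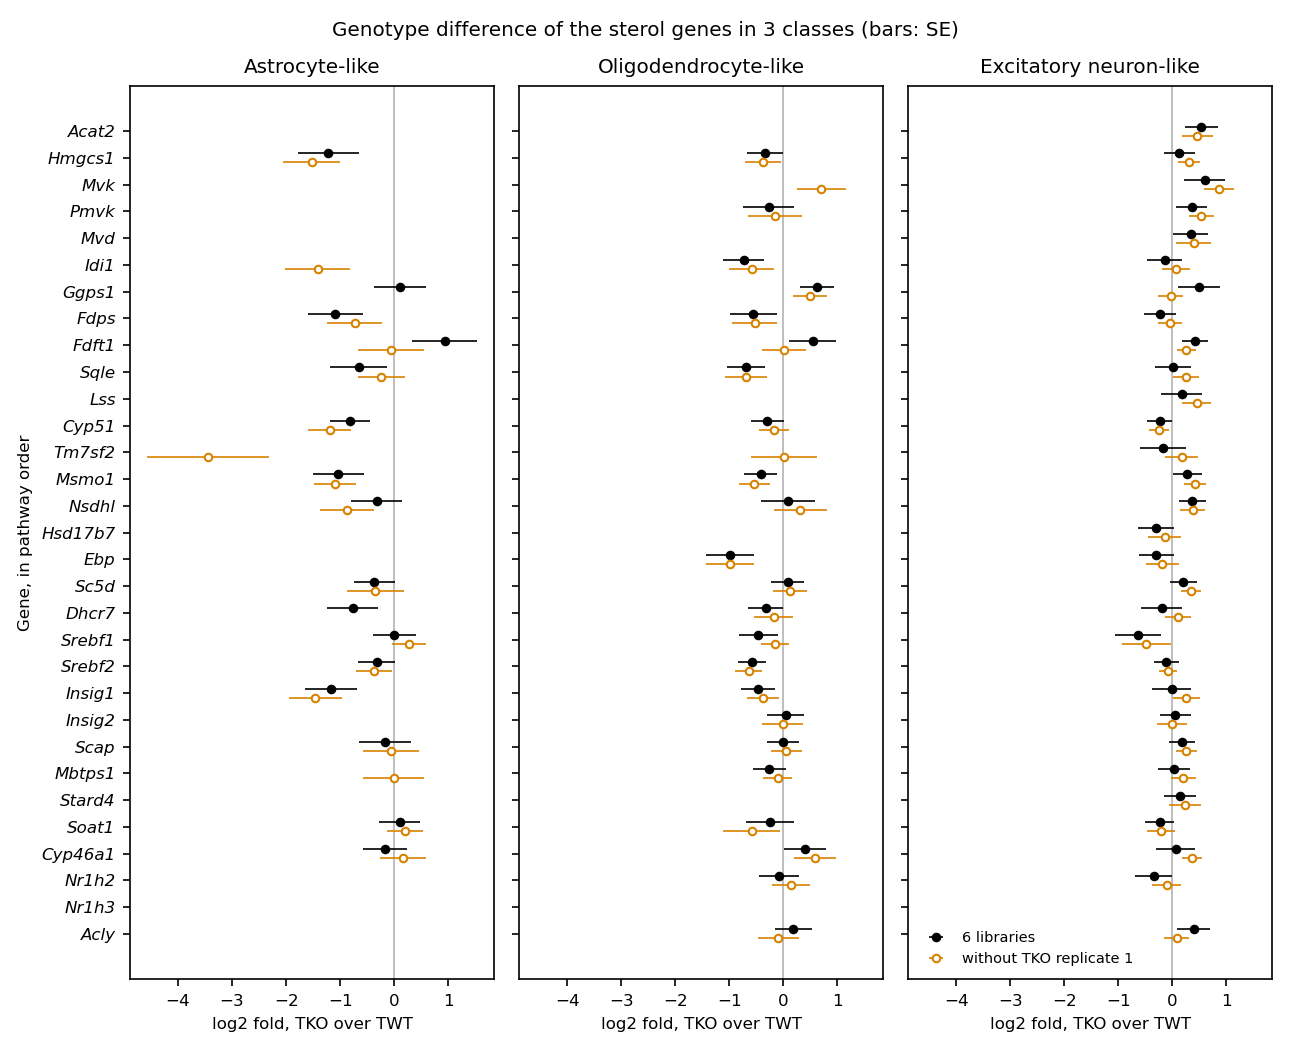
Log2 fold change of TKO over TWT with its standard error for the tested genes in astrocyte-like, oligodendrocyte-like and excitatory neuron-like nuclei, 1 panel each. Black points use 6 libraries and open orange points leave out TKO replicate 1. In the astrocyte-like panel Hmgcs1 and Cyp51 lie at −1.22 and −0.81 over 6 libraries and at −1.52 and −1.19 without TKO replicate 1, and Fdft1 lies at 0.93 and −0.05.

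The difference of the genotype effect between classes was tested directly, with the mouse as a block. For astrocytes against excitatory neurons, no gene of the 31 passed and no gene of 12748 did (0%). The effect was lower in astrocytes for 22 of 31 genes, with a median difference of −0.48, where 51.6% of all genes were lower, and 6 had an unadjusted p under 0.05, against 4.81% of all genes. Of the 31 genes, 16 had enough astrocyte counts to be tested in that class alone; the other 15, Mvk and Nr1h3 among them, entered this fit through the neurons. Msmo1 had a difference of −1.24 ± 0.31 (unadjusted p = 0.000224, adjusted p = 0.190, edgeR). Its TKO values in excitatory neurons were 68.4, 83.7 and 109 CPM, against 66.1, 77.8 and 70.6 CPM in TWT. These groups overlapped, with TKO replicate 1 below TWT replicates 2 and 3. The TKO mean was the higher one, the opposite direction to astrocytes, but the unadjusted p in excitatory neurons was not under 0.05 in edgeR. Without TKO replicate 1 the Msmo1 difference was −1.63 ± 0.33 (adjusted p = 0.101, edgeR). Without TKO replicate 3 its adjusted p was 0.0285, with no count filter 0.0363, and without TWT replicate 2 it was 1, so whether it passes rests on these choices. Hmgcs1 differed by −1.10 ± 0.38 (adjusted p = 0.785, edgeR), Mvk by −1.81 ± 0.64 and Insig1 by −0.84 ± 0.38. These sizes moved with single libraries: without TKO replicate 1 they were −1.91 for Hmgcs1, −3.44 for Mvk and −1.77 for Insig1, while Hmgcs1 was at −0.68 without TWT replicate 2 and Insig1 at −0.52 without TKO replicate 2. With TKO replicate 1 left out, the effect was lower in astrocytes for 28 of 31 genes, with a median difference of −0.81, where 54.5% of all genes were lower. Of the 31, 9 then had an unadjusted p under 0.05 in edgeR, against 4.57% of all genes. Mvk, Idi1, Acat2 and Tm7sf2 among these 9 had too few astrocyte counts for the astrocyte test over 6 libraries. This count is therefore a description and no support.

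For astrocytes against oligodendrocytes no gene of 29 tested passed, and 2 of 9299 genes did, or 0.0215%. The effect was lower in astrocytes for 19 of the 29, with a median difference of −0.22, where 48.8% of all genes were lower. Mvk had the 1 unadjusted p under 0.05, at −1.61 ± 0.70 (unadjusted p = 0.0290, edgeR), against 4.77% of genes. Over the 5 libraries other than TKO replicate 1, 21 of 29 were lower, with a median difference of −0.53, where 52.5% of all genes were lower. Cyp51, Insig1, Mvk, Hmgcs1 and Tm7sf2 then had an unadjusted p under 0.05 in edgeR, against 4.31% of genes, with Mvk at −3.21 ± 1.04. Mvk and Tm7sf2, like others of the 29, had too few astrocyte counts for the astrocyte test over 6 libraries. Mvk was at 0 CPM in the astrocytes of TKO replicate 2. These counts are therefore a description and no support. For excitatory against inhibitory neurons the effect was lower in excitatory neurons for 7 of 30 genes, with a median difference of 0.20, where 44.5% of all genes were lower, and no gene was called (0%). Msmo1 differed by 0.62 ± 0.19 (adjusted p = 0.985, edgeR), Nsdhl by 0.91 ± 0.32 and Fdft1 by 0.58 ± 0.24, the 3 with an unadjusted p under 0.05, against 4.59% of genes. With TKO replicate 1 left out, 8 of 30 were lower, with a median difference of 0.18 where 51.8% of all genes were lower, and 3 had such a p, against 3.82% of genes.

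Neighbouring pathways were described from gene lists, and none of their genes passed in astrocytes or oligodendrocytes. Of 18 genes of fatty acid synthesis and desaturation, which SREBP1 governs, 12 were tested in astrocytes and 7 were lower in TKO. The 3 with the smallest p were nonetheless higher: Acaca, acetyl-CoA carboxylase, differed by 1.12 ± 0.57, but by −0.00 without TKO replicate 1, Acsl4 by 1.08 and Elovl5 by 0.62. Acss2, which makes acetyl-CoA from acetate and was named after its values were seen, differed by −0.50 ± 0.52 over 6 libraries and by −1.42 ± 0.43 without TKO replicate 1 (unadjusted p = 0.00350, adjusted p = 0.999, edgeR). Of 13 liver X receptor targets and export genes, 8 were tested and 4 were lower, among them Osbpl2 at −0.55 and Gramd1a at −0.48. Abca1, the cholesterol efflux transporter, was higher in TKO astrocytes by 0.73 ± 0.34 and in TKO oligodendrocytes by 0.72 ± 0.27, with unadjusted p-values of 0.0561 and 0.0241 and adjusted p-values of at least 0.590 in edgeR. Over the 5 libraries other than TKO replicate 1, these were 0.83 and 0.64. A list of 12 genes of sterol sensing holds mostly proteins that take part in degrading the pathway's proteins, but also Mbtps2, a protease that activates SREBP. Of these, 3 were tested in astrocytes and none was lower, among them Faf2 at 0.88 ± 0.45 and Vcp at 0.29, whereas 2 of 4 tested were lower without TKO replicate 1. Of 14 genes of the side branches to oxysterols and isoprenoids none had enough counts. In oligodendrocytes 6 of 11 tested fatty acid genes were lower (Fads1 at −0.50, Scd1 at −0.39 and Acsl3 at −0.31), as were 5 of 11 receptor targets and export genes, 2 of 8 sterol sensing genes and 5 of 10 side branch genes. Dhdds, which starts dolichol synthesis, differed by 1.05 ± 0.41, or 0.54 without TKO replicate 1, and Erlin2, an endoplasmic reticulum protein of such degradation, by 0.71 ± 0.33.

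TKO replicate 1 was the highest or the lowest library for part of the genes. Over all its nuclei, Mvd, Ggps1, Acat2, Nr1h3, Fdft1, Nsdhl and Acly were above every other library, 13 genes were below every other library and 11 lay within their range. The extremes were Ggps1, with a log2 ratio of 1.10 over the mean of the other libraries, and Cyp46a1, with −1.03. The 15 genes with the fewest intron bases had a median log2 ratio of −0.41, and the 16 with the most had −0.09. The part of this library's software version and depth in the genotype values was not tested beyond leaving the library out.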

How the data were processed

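RNA of frontal lobe nuclei was measured in 6 libraries of 10x 3′ chemistry. The authors deposited UMI counts per gene and barcode; per the file headers they come from Cell Ranger 7.0.0 (TKO replicate 1) and 6.1.2 (the others). Build mm10 and Seurat are named in the submitters' processing notes; the annotation release, the treatment of intron reads and the treatment of reads shared with close paralogs (of Acat2 and Idi1, for example) are not stated in those sources.

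From the counts, barcodes with at least 200 detected genes and a mitochondrial share of no more than 5% were retained, and Scrublet (expected rate 6%) removed 1273 doublets, 3.71%. The series text states 5700 to 8100 nuclei per sample; the files hold 5220 to 8095 barcodes and the filters left 4427 to 7460. Clustering in scanpy 1.11.5 used 2000 variable genes without the genes described or their pathway lists, 30 components, 15 neighbours and Leiden resolution 1 (leidenalg 0.10.2). Of 29 clusters, 20 were named from marker lists and 9 stayed unnamed (20.3 to 38.4% of nuclei per library). The naming thresholds, at least 3 markers at a log2 fold of 0.8 and a mean of 0.5, were set after seeing the data.

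Counts were summed per library and class and tested with edgeR 4.0.16 (TMM, filterByExpr, two-sided quasi-likelihood test, Benjamini-Hochberg over all genes tested, threshold 0.05) in R 4.3.3; nuclei were not used as replicates. CPM values are normalised by TMM, and each standard error is the fold change divided by the root of the F statistic. On simulated counts of the astrocyte comparison (4301 genes, 200 changed by 2 on the log2 scale), 48.5% of changed genes were recovered, and 12.0% were for the astrocyte against excitatory difference (12748 genes). The simulation of that difference used a fixed dispersion instead of the fitted one, increases only, and no other difference between classes or mice. Its 12.0% is therefore not the power of the real test for decreases. Alternatives were DESeq2 1.42.0, its size factors, no count filter, each library left out, a marker gate per nucleus, at most 1% mitochondrial UMIs, and, chosen after seeing the data, the larger astrocyte cluster alone and the gate without TKO replicate 1. Values per library are given for genes tested in astrocytes, for the 3 smallest p-values in oligodendrocyte and neuron classes, and for the 4 largest called class differences; other genes were named for groups that did not overlap or for their place in the pathway. The genes, lists and tests were chosen with earlier results of these data known, and the promoter motifs after the values were seen.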

Additional observations from a re-analysis of the deposited data

How the results depend on the processing

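No gene of the 31 was called between genotypes within a class under any alternative. Over all alternatives, 465 values of the comparisons were rated the same and 28 moved. Of the values of single genes, 548 kept their direction and 23 reversed. Counts of class differences, rated the same, still varied. With 1 library left out, 12 to 18 genes of the 31 were called for astrocytes over excitatory neurons and 14 to 20 over inhibitory neurons. The range was 8 to 14 for precursors over oligodendrocytes and 15 to 18 for astrocytes over oligodendrocytes. It was 13 to 14 for oligodendrocytes over excitatory neurons and 11 to 14 for excitatory over inhibitory neurons. The counts of all genes called were not stable. With no count filter they were 510 in astrocytes, 312 in oligodendrocytes, 432 in precursors and 222 in microglia, and for the class differences of the effect 11 (astrocytes against oligodendrocytes), 23 (astrocytes against excitatory neurons, 1 of them of the 31) and 29 (excitatory against inhibitory neurons). DESeq2 called 1 gene in astrocytes. Leaving out 1 library gave 0 to 1 genes in oligodendrocytes, 0 to 5 in precursors and 0 to 2 in microglia, with the upper values without TKO replicate 1, and 1 to 51, 0 to 61 (0 to 1 of the 31, Msmo1 without TKO replicate 3) and 0 to 18 for the 3 differences of the effect. The marker gate gave 4 for astrocytes against excitatory neurons, and without TKO replicate 1 it gave 1 in oligodendrocytes and 1 in microglia. In astrocytes 26 genes were lower with no filter and 3, of 4 tested, at 1% mitochondrial UMIs; in excitatory neurons 5 were lower under the gate without TKO replicate 1.

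Signs turned round for small effects and, without TKO replicate 1, for Fdft1 in astrocytes, the tested enzyme with the highest fold change. In astrocytes Srebf1 was −0.0682 with no filter, −0.0095 with DESeq2, −0.12 under the gate, −0.23 at 1% mitochondrial UMIs, −0.0376 in the larger cluster and −0.20 to 0.28 with a library left out. Ggps1 was −0.0095 with no filter, −0.14 to 0.30 with a library left out and −0.13 under the gate without TKO replicate 1. Soat1 was −0.0879 under the gate and −0.20 to 0.24 with a library left out, and Scap −0.53 to 0.24. Cyp46a1 was 0.0047 under the gate, −0.56 to 0.16 with a library left out and 0.31 under the gate without TKO replicate 1. Fdft1 was −0.0529 to 1.30 with a library left out and −0.22 under the gate without TKO replicate 1, and Ggps1 in striatal neurons −0.10 to 0.72 and −0.13. The cause was not tested. No paired analysis was possible because the replicate numbers follow accession order and pair no samples. Astrocyte depth, at most 174159 UMIs in TKO replicates 2 and 3, limits the low genes.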

Other observations

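Among clusters with at least 20 nuclei in all 6 libraries, the 19 synthesis enzymes took the highest mean share of UMIs in a cluster that stayed unnamed and was led by Ntng1 and Cdhr1. It held 845 nuclei, and the share averaged 0.102% with a range of 0.0443 to 0.181% over libraries, against a mean of 0.0972% and a range of 0.0420 to 0.177% in the larger astrocyte-like cluster, so the ranges overlapped. The lowest share of any cluster was 0.0237%, in a striatal cluster that came almost wholly from TKO replicate 1. Soat1 reached 193 CPM in the cluster led by border macrophage markers, averaged over 5 libraries, and Nr1h3, the liver X receptor alpha gene, reached 23.7 CPM in an unnamed cluster led by Ptgds and Slc6a13, also with 5 libraries. These are values of clusters found in the same nuclei, with no test.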
